A study of Mus musculus with 3 samples.

Results

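A set of 10 genes that were low in basal keratinocytes of both Piezo1 knockout libraries of mouse back skin were followed through every other cell type of the same skin. They are Phlda1, Ccdc71l, Slc6a14, Plet1, Epha4, Clic4, Rassf9, Ell2, Nipal1 and Nedd4l, 10 of the 32285 genes in the count matrices. They were chosen by their basal level, which was at least 2-fold under control in both knockout libraries when UMIs were summed, so their basal values are a description here and carry no test. All 10 symbols were found.

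The study profiled single cells of fresh back skin from C57BL/6 mice with droplet RNA sequencing that reads the 3' end of transcripts and counts unique molecular identifiers (UMIs). The knockouts carried K5-Cre-er/Piezo1fl/fl/Tdfl/+ (Piezo1iKO, 2 weeks after induction, age P62) or K5-Cre-er/Piezo1fl/fl/Tdfl/fl (Piezo1iKO, 3 weeks, age P71). The control was K5-Cre-er/Piezo1fl/+/Tdfl/+ (2 weeks, age P62), so it also carried the recombinase and 1 floxed Piezo1 allele. All received tamoxifen from P48 to P52. Each group is 1 library, with no replicate, so no test between groups was possible and the intervals given here cover counting error only. The 3-week knockout has no control of its own age, and its age, its second Tdfl allele and the longer time since induction cannot be told apart.

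Piezo1 is a cation channel of the cell membrane that opens when the membrane is stretched. K5-Cre-er is a recombinase that tamoxifen switches on and that the keratin 5 promoter drives in the basal layer of skin epithelium. Basal keratinocytes divide and feed the spinous and granular layers above them, while the hair follicle keeps its own stem cells in the bulge and further pools in its upper part.

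The genes have separate roles. Epha4 is a receptor tyrosine kinase for ephrins, and Plet1 is a glycolipid-anchored surface protein known as a marker of the hair follicle's junctional zone. Slc6a14 imports neutral and cationic amino acids, Nipal1 belongs to a family of magnesium transporters, and Clic4 is an intracellular chloride channel protein. Phlda1 is a pleckstrin-homology-like protein, Rassf9 a Ras-association domain protein whose loss in mice disturbs the epidermis, Ell2 an elongation factor of RNA polymerase II, and Nedd4l a ubiquitin ligase that acts on the epithelial sodium channel. Little is known of Ccdc71l.

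In the GRCm38 annotation (GENCODE M21) the genes lie on 9 chromosomes, with Phlda1 and Rassf9 both on chromosome 10. All 10 are protein coding. A second gene on the same strand overlaps 3 of them, namely Gm25553 within Slc6a14, Mir6352 within Epha4, and Gm48302 and Gm23127 with Ell2. How reads in the overlap of Ell2 and Gm48302 were assigned was not checked. RefSeq promoter sequence (GRCm38.p6) was found for 7 of the 10 genes, all but Phlda1, Rassf9 and Nedd4l. The 300 bases around each start, 250 before and 50 after it, were searched on both strands for 7 short motifs. The AP-1 motif TGANTCA was found at Plet1 and Slc6a14, 2 of 7 genes, and in 7.93% of all 27025 promoters. The GC box GGGCGG was found at Epha4, Clic4, Nipal1, Ccdc71l and Ell2, 5 of 7 genes, and in 35.9% of all promoters. Plet1 was the 1 gene with the TATA box TATAAA (14.2% of promoters), 30 bases before its start, and Ell2 the 1 gene with the cAMP response element TGACGTCA (1.88%), at 198 bases. The TEAD motif GGAATG (14.6%), the ATF4 motif TGATGCAA (0.929%) and the NFAT motif TGGAAA (21.5%) were not in these 7 windows. The 250 bases before the start are shown for 2 genes with the AP-1 motif and 2 with a GC box and no AP-1 motif, with every motif match in capitals:
Plet1 (chr9:50494275-50494524, + strand): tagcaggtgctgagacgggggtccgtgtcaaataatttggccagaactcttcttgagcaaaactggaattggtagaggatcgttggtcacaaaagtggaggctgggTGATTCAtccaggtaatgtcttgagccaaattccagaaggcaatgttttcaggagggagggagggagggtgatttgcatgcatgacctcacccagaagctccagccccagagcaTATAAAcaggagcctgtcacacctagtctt
Slc6a14 (chrX:21714650-21714899, + strand): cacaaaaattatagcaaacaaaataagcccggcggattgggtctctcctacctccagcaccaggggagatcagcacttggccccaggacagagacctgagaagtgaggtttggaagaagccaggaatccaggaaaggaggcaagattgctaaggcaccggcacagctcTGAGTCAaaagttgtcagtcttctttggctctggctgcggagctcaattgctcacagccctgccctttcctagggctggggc
Epha4 (chr1:77515089-77515338, - strand): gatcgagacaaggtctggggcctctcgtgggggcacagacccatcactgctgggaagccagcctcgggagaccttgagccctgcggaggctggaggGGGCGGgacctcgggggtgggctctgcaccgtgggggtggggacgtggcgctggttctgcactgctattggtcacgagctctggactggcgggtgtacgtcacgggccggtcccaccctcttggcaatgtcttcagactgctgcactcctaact
Nipal1 (chr5:72647546-72647795, + strand): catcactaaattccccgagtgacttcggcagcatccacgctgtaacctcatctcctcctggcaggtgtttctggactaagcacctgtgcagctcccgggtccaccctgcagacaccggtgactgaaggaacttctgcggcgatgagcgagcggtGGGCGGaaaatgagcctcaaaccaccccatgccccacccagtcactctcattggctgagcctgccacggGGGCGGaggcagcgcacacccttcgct
The AP-1 match lies 144 bases before the start of Plet1 and 82 bases before that of Slc6a14. The GC box lies 154 bases before the start of Epha4, and 96 and 27 bases before that of Nipal1. None of the motifs searched was shared between the 2 pairs, which for AP-1 the choice of pairs fixes, and a match is no evidence of binding.

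After filters the libraries held 9585 (Piezo1iKO, 2 weeks), 9599 (Piezo1iKO, 3 weeks) and 4912 (control) cells, with medians of 7506, 8768 and 9989 UMIs per cell. Between 17 and 29 cell barcodes were shared by any pair of libraries. Clusters were named from fixed markers, and 12 classes held at least 50 cells in every library, 6 of them epithelial and 6 not. The classes were rebuilt here and the rule that named them was set after the clusters were seen. Interfollicular basal-like cells numbered 1463, 1855 and 752 in the same order, with medians of 11383, 12662 and 15098 UMIs, and all 12 basal markers were detected in each library. Piezo1 itself was detected at 23.4 CPM (UMIs of the gene per 1000000 UMIs of the class) in the 2-week and 15.3 CPM in the 3-week knockout basal-like cells, against 34.3 CPM in control. Over the whole class, whose clusters are given below, those are 0.683 (95% counting interval 0.593 to 0.786) and 0.445 (0.386 to 0.514) times control. A 3' count need not lose its reads when an upstream exon is deleted, and the labels do not say which exons the floxed allele spans, so this does not check the labels.

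In basal-like cells every one of the 10 genes was lower in both knockouts than in control, as the choice fixes, and 36.8% of all genes were. With the classes used here 7 of 10 were at least 2-fold lower in both, and 45 of 6895 genes with enough counts were (0.653%); the share for the 2-week knockout alone was 0.812% and for the 3-week knockout 2.6%. Clic4, Nedd4l and Nipal1 fell just outside the limit in the 2-week knockout, at ratios to control of 0.501, 0.501 and 0.511. The members nearest the limit from inside were Ell2 at 0.477, Plet1 at 0.458 and Rassf9 at 0.454. Other genes just outside it were Gm42418 (0.5001), Parp9 (0.508) and Serpinb2 (0.509), each in the 2-week knockout.

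Among the surface proteins, Plet1 stood at 770 CPM in the 2-week and 632 CPM in the 3-week knockout basal-like cells, against 1682 CPM in control. These were 0.458 (0.448 to 0.468) and 0.376 (0.368 to 0.384) times control. Epha4 stood at 104 and 65.3 CPM in the 2-week and 3-week knockouts, against 236 CPM in control, or 0.441 (0.416 to 0.469) and 0.277 (0.260 to 0.295) times control. For both genes the class-wide intervals of the 3 libraries were apart, with the 3-week knockout the lowest.

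Among the transport proteins, Slc6a14 stood at 51.4 and 29.7 CPM in the 2-week and 3-week knockouts, against 123 CPM in control. Its 3-week level, 0.242 (0.221 to 0.264) times control, was the lowest ratio of the 10 genes, and its 2-week ratio was 0.418 (0.384 to 0.454). Nipal1 stood at 50.3 and 28.6 CPM in the knockouts, against 98.6 CPM in control. Clic4 stood at 296 and 241 CPM in the knockouts, against 592 CPM in control. Over the whole class, whose clusters are given below, Slc6a14 and Nipal1 showed the widest gap between the knockouts. Their 3-week levels were 0.579 and 0.569 times those at 2 weeks.

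Among the intracellular proteins, Phlda1 was found at 583 and 407 CPM in the 2-week and 3-week knockout basal-like cells, against 1437 CPM in control, which is 0.406 (0.396 to 0.416) and 0.283 (0.276 to 0.290) times control. Rassf9 was found at 38.8 and 37.5 CPM in the knockouts, against 85.4 CPM in control. Ell2 was found at 35.9 and 25.8 CPM in the knockouts, against 75.3 CPM in control. Nedd4l was found at 98.6 and 78.4 CPM in the knockouts, against 197 CPM in control. Ccdc71l was found at 40.2 and 42.3 CPM in the knockouts, against 152 CPM in control, and had the lowest 2-week ratio of the 10, 0.264 (0.242 to 0.289). Over the whole class, Ccdc71l and Rassf9 were also the genes whose knockout levels did not differ beyond counting error. Their 3-week over 2-week ratios were 1.05 (0.957 to 1.16) and 0.966 (0.873 to 1.07).

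**Figure D1:**
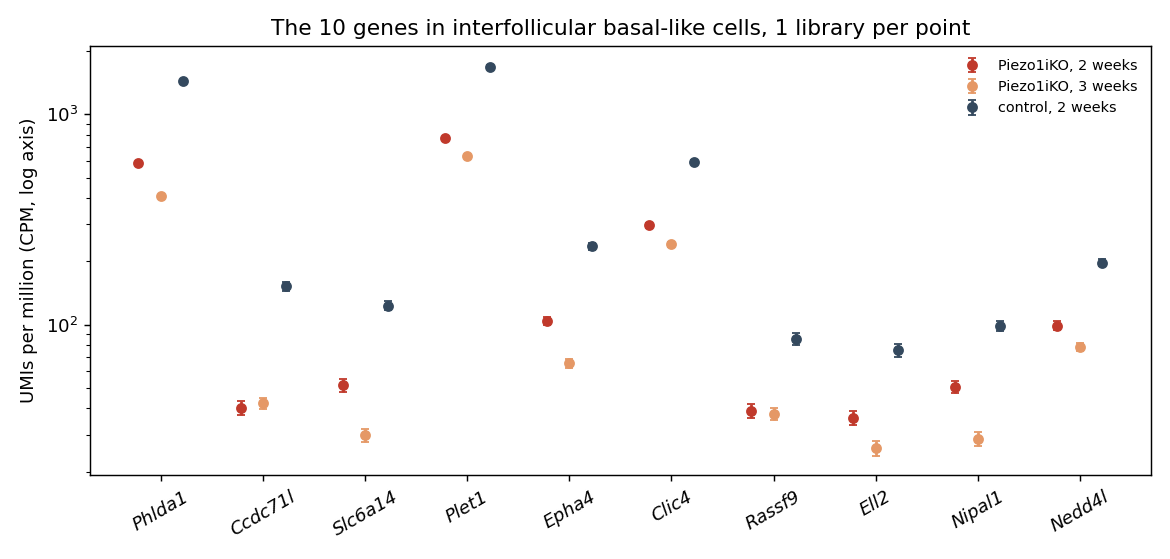
CPM (log axis) of the 10 genes in interfollicular basal-like cells; each point is 1 library and bars are exact Poisson 95% intervals of the count. For every gene both knockout points lie under the control point, as the choice of genes fixes; Phlda1 is at 583 and 407 CPM in the knockouts against 1437 CPM in control.

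The basal-like class was made of 2 clusters whose shares differed between libraries, and the genes differed between these clusters. Cluster 1, led by Itga2, Epgn, Tslp and Ifi202b, held 58.6% of the 2-week knockout's basal-like cells and 37.2% of the 3-week knockout's, against 80.9% of the control's. Cluster 3, led by Epgn, Krt14, Fcgbp and Smoc2, held 41.4% and 62.8% in the knockouts, against 19.1% in control. In control cells each of the 10 genes was higher in cluster 1 than in cluster 3, by 2.41 times for Nedd4l up to 11.8 times for Slc6a14. The clusters were built on expression of these same cells, so that contrast is a description.

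Both clusters are part of the cells by which the genes were chosen, so the values within them are a description too. Within cluster 1 alone all 10 genes were lower in both knockouts (38.2% of 6652 genes). The ratios to control ran over 0.308 to 0.624 in the 2-week and 0.329 to 0.526 in the 3-week knockout. At least 2-fold lower were 4 of 10 in the 2-week knockout (0.737% of 6652 genes), 7 of 10 in the 3-week knockout (1.77%) and 3 of 10 in both (0.511%). Those 3 were Phlda1, Ccdc71l and Epha4, named after their values were seen. Phlda1 in cluster 1 was at 809 and 774 CPM in the 2-week and 3-week knockouts, against 1652 CPM in control, so its knockout libraries nearly met there while in the whole class they stood apart. Plet1 met there too, at 1010 (991 to 1029) and 992 (972 to 1013) CPM in the knockouts, against 1911 CPM in control. Ccdc71l, whose knockout levels met over the whole class, stood apart in cluster 1. It was at 54.4 (50.1 to 59.0) and 78.2 (72.7 to 84.0) CPM in the 2-week and 3-week knockouts. In the same order, Slc6a14 was at 74.2 and 51.5 CPM in cluster 1, Nipal1 at 71.3 and 49.1 CPM, and Epha4 at 130 and 87.6 CPM.

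Within cluster 3 none of the 10 was 2-fold lower in either knockout, against 0.741% and 1.54% of 7284 genes at 2 and 3 weeks and 0.494% in both. Ratios ran over 0.654 to 1.20 in the 2-week and 0.626 to 1.31 in the 3-week knockout. The lowest were Nedd4l in the 2-week and Phlda1 in the 3-week knockout, at 0.654 (0.543 to 0.791) and 0.626 (0.568 to 0.690). Slc6a14, Nipal1 and Rassf9 had ratios above 1 in both knockouts there, with intervals that included 1. Slc6a14 was at 12.5 and 15.8 CPM in the 2-week and 3-week knockouts against 12.1 CPM in control. Nipal1 was at 14.5 and 15.6 CPM in the knockouts against 13.2 CPM in control. The control library had 144 cells in cluster 3. With both clusters given equal weight the ratios ran over 0.360 to 0.673 in the 2-week and 0.413 to 0.670 in the 3-week knockout, and no gene met the 2-fold limit in both. Piezo1 in cluster 1 was at 0.766 (0.657 to 0.892) and 0.505 (0.421 to 0.604) times control in the 2-week and 3-week knockouts. In cluster 3 it was at 0.956 (0.611 to 1.54) and 0.890 (0.589 to 1.40), and with equal weights at 0.818 and 0.611. What the difference in mix came from was not tested.

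**Figure D2:**
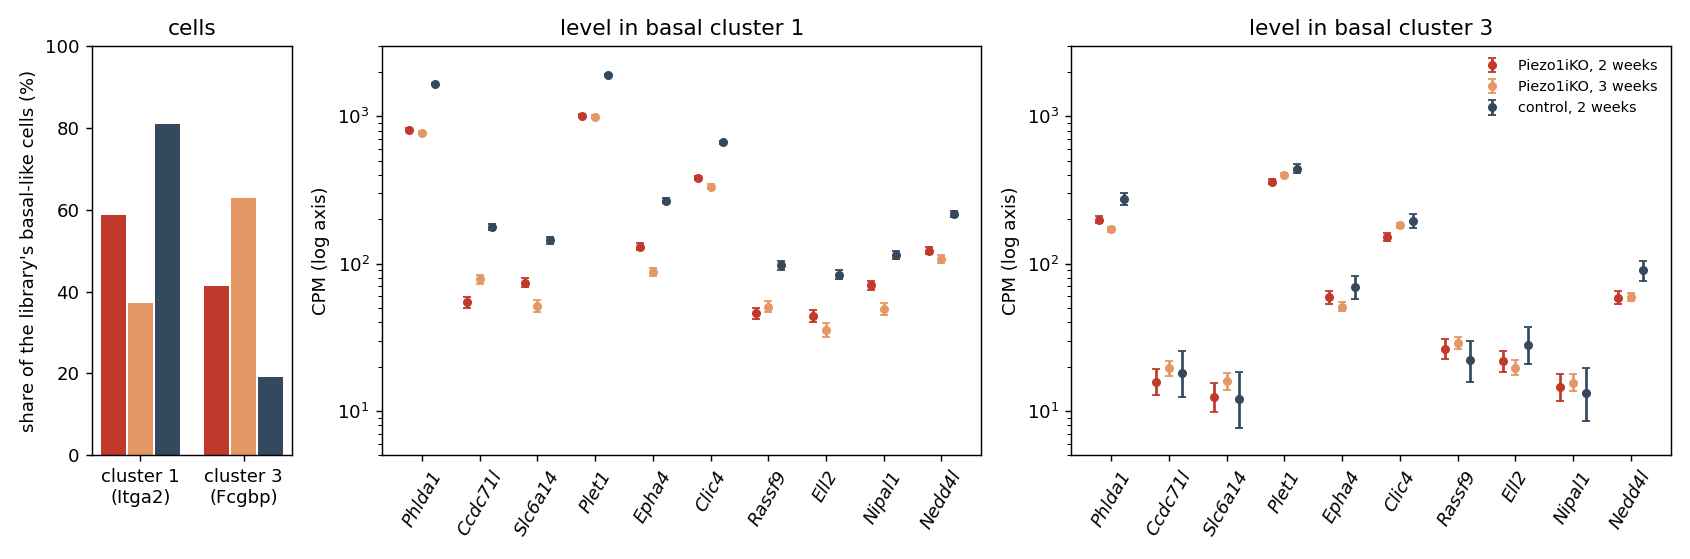
Left, share (%) of each library's basal-like cells in cluster 1 and cluster 3; middle and right, CPM (log axis) of the 10 genes within each cluster, 1 point per library with Poisson 95% intervals. Control cells are 80.9% cluster 1; in cluster 1 both knockout points lie under control for every gene, in cluster 3 several intervals overlap.

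The other keratinocyte classes come from the same 3 libraries and are no independent replicates. Over the 5 other keratinocyte classes, 17 of 48 pairs of gene and class were at least 2-fold lower in both knockouts, and 0.697% of all such pairs over all genes were. Over the 6 non-epithelial classes 3 of 34 pairs were, against 1.11% of all pairs there. The 3 include Plet1 in blood endothelial-like cells, which is read as background below. They also include Nipal1 in fibroblast-like cells, which rests on few UMIs in the 2-week knockout. With the clusters of each class weighed equally the counts were 12 and 2. Pairs under the count limit of 50 UMIs or a mean of 10 CPM are left out of both counts.

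In spinous-like cells, the first layer above the basal one, 7 of 10 genes were at least 2-fold lower in both knockouts (0.708% of 6775 genes). All 10 had ratios under 1 in both (39.1% of genes). The class was 85.8% and 84.6% cluster 2 in the 2-week and 3-week knockouts, against 90.9% in control. Its other cluster, 17, held 114 and 175 cells in the knockouts and 37 in control. Ratios there ran both ways, with Epha4 at 1.17 and 1.24 and Plet1 at 0.657 and 0.817. Only Rassf9 at 3 weeks, at 0.416 (0.215 to 0.838), had an interval there that left out 1. Ccdc71l was highest in this class and was at 62.4 and 69.1 CPM in the 2-week and 3-week knockouts, against 265 CPM in control, or 0.236 (0.215 to 0.258) and 0.261 (0.243 to 0.280) times control. Plet1 was at 749 and 722 CPM in the knockouts, against 1876 CPM in control. The 3 genes that missed the limit were Clic4 at ratios of 0.823 and 0.559, Rassf9 at 0.729 and 0.588, and Nipal1 at 0.525 and 0.496.

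Granular-like cells, the last living layer, numbered 253 and 459 in the knockouts and 75 in control. All 10 genes were under control in both knockouts (44.7% of 6558 genes), but 2 of 10, Ccdc71l and Nedd4l, were at least 2-fold lower in both (0.9%). Slc6a14 had its highest mean level over the libraries in this class, at 124 and 169 CPM in the 2-week and 3-week knockouts, against 213 CPM in control. Its ratio at 3 weeks was 0.794 (0.739 to 0.853), where in basal-like cells it was 0.242, and Nipal1 likewise stood at 0.682 and 0.698 here.

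Cycling keratinocyte-like cells had 6 of 10 genes at least 2-fold lower in both knockouts (0.681% of 7636 genes), namely Phlda1, Ccdc71l, Slc6a14, Plet1, Epha4 and Nipal1, and all 10 had ratios under 1 (40.6%). Nipal1 was at 44.9 and 24.8 CPM in the 2-week and 3-week knockouts, against 102 CPM in control. Rassf9 was nearest to control, at 0.917 (0.788 to 1.07) and 0.691 (0.595 to 0.803), a value that pools 2 clusters with opposite directions. In cluster 13, closest to the basal markers apart from cycling genes, the Rassf9 ratios were 0.619 (0.507 to 0.757) and 0.518 (0.429 to 0.627). In cluster 21, closest to the upper hair follicle markers apart from them, they were 1.79 (1.40 to 2.29) and 1.34 (1.05 to 1.73). Cluster 13 held 69.4% and 74.8% of the class in the 2-week and 3-week knockouts, against 61.6% in control. Of the 6 genes, Phlda1, Ccdc71l, Slc6a14 and Epha4 met the limit in both knockouts in cluster 13. Plet1 and Nipal1 missed it there at 2 weeks, at 0.546 and 0.540. In cluster 21 Plet1 and Nipal1 met it. Phlda1, Ccdc71l and Epha4 missed it there at 2 weeks, at 0.683, 1.03 and 0.543, and Slc6a14 at 3 weeks, at 0.600.

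The upper hair follicle-like class held the highest levels of Plet1, Epha4 and Rassf9. Plet1 was at 1793 and 1441 CPM in the 2-week and 3-week knockouts, against 3009 CPM in control. None of the 10 was 2-fold lower in both (0.65% of 7231 genes), yet all 10 had ratios under 1 in both (43.1%), spanning 0.529 to 0.770 in the 2-week knockout and 0.342 to 0.699 in the 3-week knockout. Phlda1 was the lowest of them at 3 weeks, at 689 and 410 CPM in the 2-week and 3-week knockouts against 1201 CPM in control.

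The clusters of the upper hair follicle-like class were also mixed differently in the libraries. Cluster 4, led by Sostdc1, held 50.2% of its cells in the 2-week knockout and 48.4% in the 3-week knockout, against 20.4% in control, while cluster 6, led by Fst, held 27.5% and 22.02% in the knockouts, against 55.1% in control. Within cluster 4 the 2-week Phlda1 ratio was 1.02 (0.936 to 1.11) and the 3-week ratio 0.639 (0.585 to 0.699). Slc6a14 lay above control there, at 3.03 (1.40 to 7.80) and 2.43 (1.12 to 6.25) times control, on 75, 72 and 7 UMIs in the 2-week knockout, the 3-week knockout and control. Rassf9 stood at 1.22 (1.05 to 1.43) and 1.03 (0.885 to 1.21). Plet1 was under control in each cluster, at 0.843 and 0.696 in cluster 4, 0.865 and 0.629 in cluster 6, and 0.563 and 0.503 in cluster 7, led by Defb6. The class-wide ratios thus pool clusters in which some members did not lie under control, and what the difference in mix came from was not tested.

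In bulge-like cells, the hair follicle's stem cell region, 8 genes passed the count limit and 2 of them, Phlda1 and Nedd4l, were at least 2-fold lower in both knockouts (0.565% of 7261 genes). Phlda1 was at 335 and 187 CPM in the 2-week and 3-week knockouts, against 777 CPM in control, and its ratio of 0.240 (0.223 to 0.258) at 3 weeks was lower than in basal-like cells. Nedd4l was at 61.5 and 48.8 CPM in the knockouts, against 146 CPM in control. Ccdc71l stayed near control at 24.4 and 28.0 CPM in the knockouts, against 24.8 CPM, with ratios of 0.984 (0.796 to 1.22) and 1.13 (0.872 to 1.47). Slc6a14 was near its floor in the bulge, at 1.37 and 4.23 CPM in the knockouts and 0.695 CPM in control. The class pools clusters 0, 12 and 14. Cluster 14, led by Angptl7, held 11.9% and 15.5% of its cells in the knockouts, against 4.57% in control. Phlda1 was at 0.438 and 0.253 times control in cluster 0, and at 0.559 and 0.273 in cluster 12. In cluster 14 it was at 1.76 (0.908 to 3.89) and 2.00 (1.01 to 4.52), on 9 UMIs in 24 control cells.

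Sebaceous gland-like cells were too few in the 2-week knockout (18) and could be compared at 3 weeks only, with 112 cells against 98 in control. There 6 of 9 genes were at least 2-fold lower (2.57% of 7050 genes), with Epha4 at 15.9 CPM in the 3-week knockout against 69.6 CPM in control. An epithelial cluster led by Pthlh, left unnamed, had 3 of 9 genes at least 2-fold lower in both knockouts (0.834% of 7311 genes). Another led by Nppc had none of 8 (0.578% of 7264 genes).

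**Figure D3:**
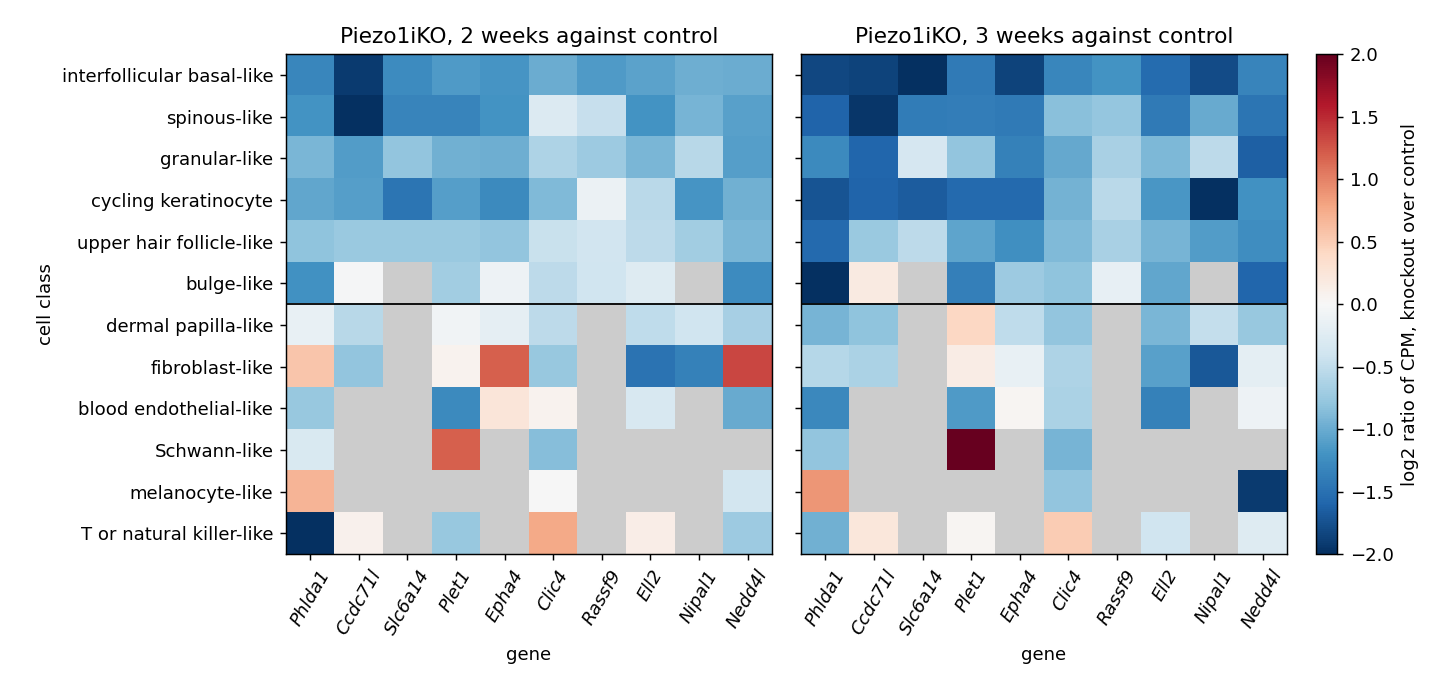
Log2 ratio of CPM, knockout over control, for each gene (columns) in 12 cell classes (rows; epithelial above the line), left the 2-week and right the 3-week knockout; grey marks genes under the count limit. Spinous-like cells have 7 of 10 genes at least 2-fold lower in both knockouts, dermal papilla-like cells none of 8, though 7 of those 8 are lower by a smaller amount.

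Outside the epithelium the direction varied with the class and the gene. Dermal papilla-like cells, fibroblast-related cells at the hair base, had none of 8 genes 2-fold lower in both knockouts (0.67% of 7758 genes). Lower by any amount in both were 7 of 8 (38.8% of genes), and at 3 weeks 6 had intervals below 1. Phlda1 was at 80.5 and 46.9 CPM in the 2-week and 3-week knockouts against 89.2 CPM in control. Clic4 was among those 7, at 844 and 699 CPM in the knockouts against 1207 CPM in control, with ratios of 0.699 (0.662 to 0.739) and 0.579 (0.549 to 0.612).

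In fibroblast-like cells, Ell2 and Nipal1, 2 of 8 genes, were at least 2-fold lower in both knockouts (0.656% of 7929 genes). Ell2 was at 57.3 and 75.0 CPM in the 2-week and 3-week knockouts, against 159 CPM in control. The class pools cluster 8, led by Col1a2, with 31.2% of its cells in the 2-week knockout and 72.1% in the 3-week knockout against 70.98% in control, and cluster 15, led by Coch. Ell2 was at 0.506 (0.340 to 0.725) and 0.473 (0.413 to 0.540) times control in cluster 8, and at 0.833 (0.494 to 1.38) and 0.654 (0.415 to 1.03) in cluster 15. Nipal1 in the 2-week knockout rests on few counts, 1 UMI in cluster 8 and 10 UMIs in cluster 15. Keratin genes used in naming summed to 453 CPM in cluster 8 and 4458 CPM in cluster 15. The part of keratinocyte RNA in the Nipal1 level was not tested. Epha4 and Nedd4l had class-wide ratios of 2.30 (1.52 to 3.42) and 2.54 (1.63 to 3.90) at 2 weeks, and of 0.901 (0.648 to 1.26) and 0.875 (0.604 to 1.27) at 3 weeks. Within the clusters the 2-week ratios were smaller and their intervals included 1. Epha4 was at 1.68 (0.577 to 4.03) in cluster 8, on 6 UMIs in that knockout, and at 1.26 (0.768 to 2.06) in cluster 15. Nedd4l was at 1.96 (0.666 to 4.78) in cluster 8, also on 6 UMIs, and at 1.44 (0.833 to 2.48) in cluster 15. The median gene of this class was itself above control, by 0.12 and 0.15 on the log2 scale at 2 and 3 weeks, so these ratios lie higher by that much than ratios to the median gene. The 2-week knockout had 160 of these cells, against 441 in control.

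Blood endothelial-like cells had the highest Clic4 level of the classes, at 2045 and 1247 CPM in the 2-week and 3-week knockouts against 1937 CPM in control. The 2-week ratio of 1.06 had an interval that included 1 (0.979 to 1.14), and the 3-week ratio was 0.643 (0.592 to 0.699). Of 6 genes, Plet1 was at least 2-fold lower in both knockouts (0.499% of 5210 genes), on 17, 21 and 43 UMIs in the 2-week knockout, the 3-week knockout and control. Plet1 was found in 6.25% and 7.27% of these cells in the knockouts and 9.30% in control, close to its shares in T or natural killer-like cells, so it is read as background and no direction is taken from it. Schwann-like cells had none of 3 genes 2-fold lower in both (2.86% of 3219 genes), with Clic4 at 591 and 558 CPM in the knockouts against 1063 CPM in control. Plet1 was at least 2-fold higher in both (2.55% of genes), at 2.30 (0.795 to 8.09) and 4.16 (1.60 to 13.7) on 15, 30 and 5 UMIs in the 2-week knockout, the 3-week knockout and control, and was found in 7.32% and 8.78% of cells in the knockouts and 6.41% in control, again at background.

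Melanocyte-like and T or natural killer-like cells each had a gene whose intervals lay above control in both knockouts. Phlda1 in melanocyte-like cells was at 871 and 999.7 CPM in the 2-week and 3-week knockouts, against 545 CPM in control, or 1.60 (1.28 to 2.01) and 1.84 (1.49 to 2.27) times control. Nedd4l was highest in this class and was at 258 and 88.6 CPM in the knockouts, against 333 CPM in control. None of 3 genes was 2-fold lower in both (0.905% of 2321 genes).

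Clic4 in T or natural killer-like cells was at 382 and 320 CPM in the 2-week and 3-week knockouts, against 226 CPM in control, or 1.69 (1.35 to 2.11) and 1.41 (1.19 to 1.68) times control. The class pools cluster 16, led by Ctla2a, with 89.7% of its cells in the 2-week knockout and 69.2% in the 3-week knockout against 50% in control, and cluster 25, led by Icos. Within cluster 16 the Clic4 ratios were 1.18 (0.925 to 1.51) and 1.22 (1.004 to 1.48), and within cluster 25 they were 1.11 (0.293 to 2.97) and 0.741 (0.470 to 1.15). Ell2 had its highest level in this class, at 295 and 205 CPM in the knockouts against 270 CPM in control. None of 6 genes was 2-fold lower in both (2.04% of 5588 genes). Langerhans-like and macrophage-like cells could be compared at 3 weeks only, and none of 5 and none of 6 genes was 2-fold lower there (6.83% of 4716 and 5.22% of 3887 genes).

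Free RNA sets a floor on such levels. Plet1 was found in 5.15% and 8.74% of T or natural killer-like cells in the 2-week and 3-week knockouts and 7.84% in control, at median depths of 3296, 3686.5 and 4445 UMIs. In basal-like cells it was found in 86.1% and 83.8% of cells in the knockouts and 93.5% in control. Slc6a14 was at 2.00 and 4.54 CPM over all non-epithelial cells in the knockouts, and at 1.11 CPM in control, and no direction is read from it there.

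**Figure D4:**
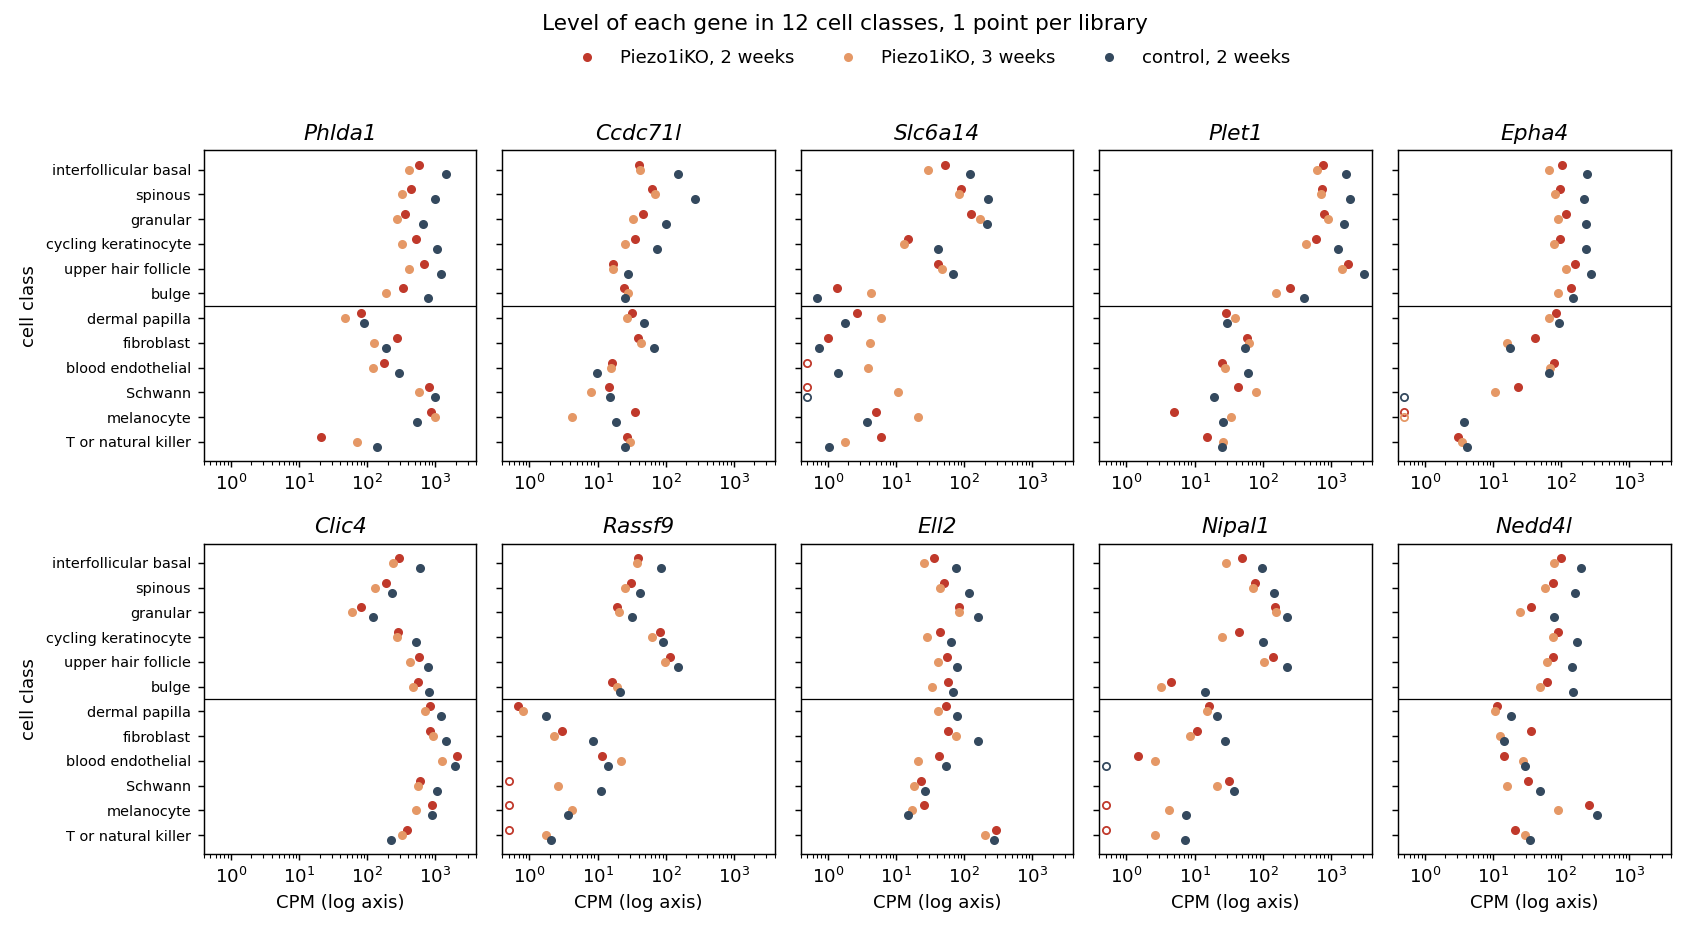
CPM (log axis) of each gene in 12 cell classes, 1 point per library (epithelial classes above the line); open points are values under 0.5 CPM drawn at that value. Slc6a14, Rassf9 and Nipal1 lie mostly in epithelial classes, while Clic4 is highest in blood endothelial-like cells.

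By the mean of the 3 libraries, basal-like cells were the highest of 12 classes for Phlda1 alone. They were at rank 2 for Ccdc71l and Nedd4l, rank 3 for Slc6a14, Epha4 and Rassf9, rank 4 for Plet1 and Nipal1, and rank 8 for Clic4 and Ell2. Spinous-like cells led for Ccdc71l at a mean of 132 CPM, and granular-like cells for Slc6a14 at 169 CPM and Nipal1 at 177 CPM. Upper hair follicle-like cells led for Plet1 at 2081 CPM, Epha4 at 183 CPM and Rassf9 at 122 CPM. Most neighbours in these orders overlapped over the 3 libraries, 102 of 110 neighbouring pairs. Clear steps were that of Ell2 between T or natural killer-like cells (205 to 295 CPM) and granular-like cells (83.2 to 157 CPM), and that of Plet1 between bulge-like cells (156 to 400 CPM) and fibroblast-like cells (55.6 to 61.8 CPM).

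The genes whose profile over the 12 classes and 3 libraries was most like each member were taken from 13904 genes by Pearson's r of log2(CPM + 5) over 36 points. The points share libraries, depth and clustering, so r is a description. Plet1 was most like Cldn1 (r = 0.98), a tight junction claudin, and Nipal1 most like Cldn4 (0.90), another claudin. Slc6a14 was most like Bbox1 (0.96), an enzyme of carnitine synthesis. Epha4 was most like Fosl1 (0.91), an AP-1 subunit, Rassf9 most like Serinc2 (0.91) and Clic4 most like Nedd4 (0.89), a ubiquitin ligase related to Nedd4l. Nedd4l was most like Met (0.87), the receptor for hepatocyte growth factor, and Phlda1 most like Ctnna1 (0.87), an adherens junction catenin. Ell2 was most like Gm48302 (0.89), which overlaps it on the same strand, and Ccdc71l most like Gm43465 (0.79). No member was the nearest gene of another. Over the 45 pairs of members the median r was 0.40, the highest 0.88 for Plet1 and Rassf9, and the lowest -0.71 for Slc6a14 and Clic4.

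To compare cells of unequal depth, each cell was thinned to 3000 UMIs, and shallower cells were left out. A basal-like cell then held a median of 3 of the 10 genes in the 2-week knockout and 2 in the 3-week knockout, against 4 in control. Cells with 5 or more of the genes made up 13.6% and 6.59% of basal-like cells in the 2-week and 3-week knockouts, against 42.3% in control. Left out were 32, 34 and 8 cells in that order. The genes were chosen for low levels in these cells, so the basal values are a description. They also pool both basal clusters, whose shares differed between libraries. In spinous-like cells the shares were 12.8% and 8.96% in the knockouts against 38.4% in control, and in the upper hair follicle-like class 20.5% and 13.2% against 40.7%. In bulge-like cells they were 2.33% and 1.32% in the knockouts, against 7.83% in control. Over all non-epithelial cells they were 1.03% and 0.154% in the knockouts, against 0.596% in control, where 307, 694 and 183 shallower cells were left out.

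**Figure D5:**
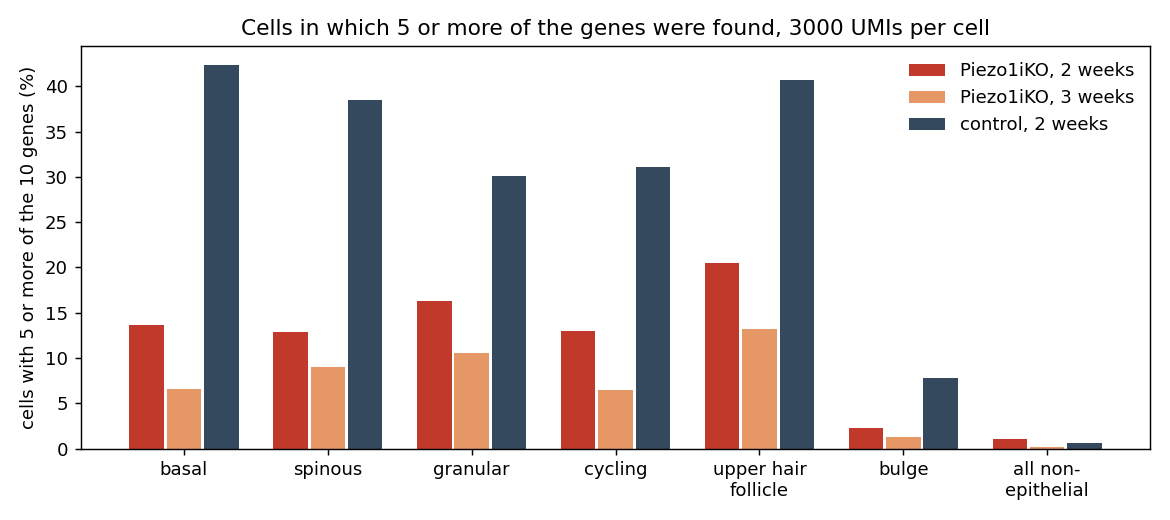
Share (%) of cells in which 5 or more of the 10 genes were found after thinning each cell to 3000 UMIs, by class and library. In basal-like cells it was 13.6% and 6.59% in the knockouts and 42.3% in control, a description, as the genes were chosen for low levels in these cells.

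Relatives of the members and genes around their pathways were taken from 12 lists holding 110 genes, of which 71 had enough counts in basal-like cells. All list values pool both basal clusters, whose shares differed between libraries, and were not split by cluster. Of these 71, none was at least 2-fold lower in the 2-week and 1 in the 3-week knockout, which is near the shares over all 6895 genes (0.812% and 2.6%). At least 2-fold higher were 2 and 4 (0.638% and 1.31% of all genes). The 1 lower gene was Smad3, a signal carrier of TGF-beta receptors and a substrate of Nedd4l. It was at 14.8 and 11.3 CPM in the 2-week and 3-week knockouts, against 26.6 CPM in control, and its ratios were 0.555 (0.468 to 0.658) and 0.424 (0.360 to 0.501).

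The higher genes were all immediate early genes, which respond fast to growth signals and stress. Fos, an AP-1 subunit, was at 3143 and 4047 CPM in the 2-week and 3-week knockouts, against 1342 CPM in control. Its ratios over the whole basal-like class were 2.34 (2.30 to 2.38) and 3.02 (2.96 to 3.07). Socs3, a feedback inhibitor of cytokine receptors, had ratios of 2.10 and 2.50, Atf3 of 1.63 and 2.02, and Btg2 of 1.24 and 2.21. Over the 15 genes of that list the median log2 ratio was 0.25 at 2 weeks and 0.79 at 3 weeks, against 0.04 and 0.01 over all genes. These genes are also known to respond to tissue dissociation, and their part in the members' levels was not tested. The part of the difference in cluster mix in these ratios was not tested either.

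Markers of neighbouring cell types were also summed in basal-like cells. The 8 spinous markers summed to 2408 and 2436 CPM in the 2-week and 3-week knockouts, against 2101 CPM in control, and none of them was at 0. The 9 bulge markers summed to 4369 and 3956 CPM in the knockouts, against 4287 CPM in control. The 8 upper hair follicle markers summed to 922 and 1307 CPM in the knockouts, against 1416 CPM in control. Fst, 1 of these 8, was at 165 and 154 CPM in the knockouts, against 426 CPM in control. The sum thus does not give the direction of the other markers. The 9 granular markers summed to 26.4 and 145 CPM in the knockouts, against 25.9 CPM in control. The part of these cells in the members' levels was not tested.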

How the data were processed

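The 3 libraries of back skin cells were analysed, 1 each of the 2-week and 3-week Piezo1 knockout and of the control. The deposited matrices hold whole-number UMI counts per gene and cell barcode. The authors made these counts with Cell Ranger 6.1.2 on mm10, per the submitters' processing notes, and the protocol in the labels is 10x Genomics 3' v3.1. Whether intronic reads were counted is not given in the sources used here.

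Cells with at least 500 genes and under 15% mitochondrial UMIs were kept, and doublets called within each library were removed (2.88%, 3.94% and 2.19% of cells in the 2-week knockout, 3-week knockout and control). Cells were clustered together on 2000 variable genes and 30 principal components, with 15 neighbours and Leiden resolution 1 (scanpy 1.11.5, leidenalg 0.10.2), into 31 clusters. A cluster took the class whose markers led by 0.4 on a standardised log scale, with at least 3 markers detected. These limits were set after the clusters were seen. Counts were summed per class and library and divided by the library's total in that class (CPM). A class was compared where each library held at least 50 of its cells, and a gene within it where the 3 libraries summed to 50 UMIs or more and averaged 10 CPM or more. Ratios have exact conditional binomial 95% intervals, levels exact Poisson ones. UMIs of one cell are not independent draws between animals, so the intervals are too narrow for a comparison of conditions. Calls were also run on simulated Poisson counts, which hold no spread between cells or animals and so check the calculation only.

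The text names all 10 members, genes of the fixed lists at least 2-fold changed in either knockout's basal-like cells, the most alike gene of each member, the 3 members and 3 other genes nearest the limit, and Piezo1. The members and lists were chosen with earlier results of these data known. Alternatives were another scaling (TMM of edgeR 4.0.16, size factors of DESeq2 1.42.0), filter, clustering, doublet treatment, per-cell means, thinning, equal cluster weights and removal of the top cell.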

Additional observations from a re-analysis of the deposited data

Results flagged for a closer look

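In 2 gene and class pairs the counting intervals of both knockouts lay above control where in basal-like cells they lay below it, and the difference between classes was not tested. Phlda1 in melanocyte-like cells was at 1.60 and 1.84 times control in the 2-week and 3-week knockouts, where in basal-like cells it was at 0.406 and 0.283. The melanocyte-like class is a single cluster and held 76 and 100 cells in the knockouts and 72 in control. Over 12 alternatives the 2-week ratio ran over 0.971 to 1.78, the lowest with cells thinned to 3000 UMIs, and the 3-week ratio over 1.61 to 2.04.

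Clic4 in T or natural killer-like cells was at 1.69 and 1.41 times control in the 2-week and 3-week knockouts, where in basal-like cells it was at 0.501 and 0.407. The class held 97 and 286 cells in the knockouts and 204 in control, and its cluster 16 made up 89.7% and 69.2% of them in the knockouts, against 50% in control. Within that cluster the ratios were 1.18 (0.925 to 1.51) and 1.22 (1.004 to 1.48). Over 12 alternatives the ratios ran over 1.18 to 2.02 at 2 weeks and 1.12 to 1.503 at 3 weeks.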

How the results depend on the processing

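No paired analysis was possible because each group is 1 library. The count of 7 genes at least 2-fold lower in both knockouts in basal-like cells stayed within 6 to 10 under 11 of 12 alternatives, and was 0 with the clusters of the class weighed equally. Chosen after seeing the data, cluster 1 alone gave 3 and cluster 3 alone 0. All 10 genes met the limit with both scalings and with each library clustered on its own. In other keratinocyte classes the 17 pairs ran over 12 to 18. In non-epithelial classes the 3 pairs became 5 with no filter but 1 UMI, 1 with the stricter filter, 5 with the mean of per-cell CPM and 1 with thinned cells. Of 238 alternative basal ratios, all were under 1 (0.228 to 0.673), and 56 left the counting interval of the value reported. In other classes 26 of 164 ratios crossed 1 under at least 1 alternative, among them Ccdc71l in upper hair follicle-like cells at both times. Plet1 in Schwann-like cells of the 2-week knockout, 2.30 on 15 and 5 UMIs in knockout and control, reversed to 0.953 with doublets kept. Scaling by TMM lowered the log2 ratios of fibroblast-like cells by 0.23 and 0.19 and raised those of melanocyte-like cells by 0.15 and 0.15.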
